A study of Mus musculus with 6 samples.

Results

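The genes described here are 9 genes of sphingosine kinase and sphingolipid metabolism, out of 17893 named genes on the array. They are Sphk1, Sphk2, Sgpl1, Sgpp1, Asah1, Smpd1, Ugcg, Sptlc1 and Sptlc2. Every probe carrying one of these symbols was taken, which gave 17 of 25697 probes. The genes were put together with the results of the comparison below in view, since Sphk1 had among the largest differences in it. Their differences are therefore given as a description with no p-value.

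RNA came from mouse hepatic progenitor cells, epithelial cells of the liver able to become hepatocytes or bile duct cells. It was labelled with biotin and read on 6 Illumina bead arrays of 1 colour. The groups were 3 samples from Met fl/fl livers and 3 from Egfr fl/fl livers, all control livers of C57BL/6 background. Met encodes the receptor of hepatocyte growth factor and Egfr the epidermal growth factor receptor. A floxed allele is flanked by recombination sites and stays intact until a recombinase acts on it, and the labels name no recombinase in either group. The labels give no age, and nothing in them ties the 3 samples of a group to different animals or cultures. The p-values below therefore measure only the spread between these samples, and part of it may be technical. No label names a slide or batch, and a batch that followed genotype cannot be told apart from it.

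Sphingolipids are membrane lipids built on a sphingoid base. Their synthesis starts with serine palmitoyltransferase, passes through ceramide, and branches from ceramide to sphingomyelin and to glycolipids. Ceramidases release sphingosine from ceramide, and sphingosine kinases turn it into sphingosine 1-phosphate, a signal read by G protein-coupled receptors. Sphingosine 1-phosphate is removed by phosphatases, which give sphingosine back, and by a lyase, which is the exit from the pathway.

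The mean signal of an array, in the deposited intensity units, ran from 275 to 398 on the Met fl/fl arrays and from 241 to 321 on the Egfr fl/fl arrays, and 43.8% to 45.3% of probes were detected, meaning a detection p under 0.05. The lowest signal with a detection p of 0 was 319 to 391 units on the Met fl/fl arrays, against 38.7 to 75.9 units on the Egfr fl/fl arrays. With a detection p up to 0.00125 it was 33.8 to 42.4 units and 30.6 to 34.3 units. The first of these gaps follows genotype, and whether a batch lies behind it was not tested. The number of arrays limits the precision of every value. Over tested probes the Pearson r of arrays was 0.967 to 0.992 inside the groups, against 0.891 to 0.921 across them. At several genes below Egfr fl/fl replicate 3 differed from the other Egfr fl/fl arrays, so its value is singled out there. Biliary and progenitor markers had summed signals of 18050 to 28900 in Met fl/fl and 25580 to 35590 in Egfr fl/fl, with 5 of 9 tested markers lower in Met fl/fl and 0 higher. Hepatocyte markers summed to 4521 to 7643 units in Met fl/fl, against 2798 to 3162 units in Egfr fl/fl, but Alb, which encodes albumin, was detected on 0 arrays and 6 of the 10 markers likewise. Of the 4 tested hepatocyte markers, Hnf4a was higher in Met fl/fl, and Ttr, which carries most of the sum, did not pass. Apoa1 was detected in Met fl/fl only and Serpina1a in Egfr fl/fl only. Each passed the detection filter only through the group where it was high. Endothelial markers summed to 47.4 to 55.9 units in Met fl/fl, against 13.4 to 62.0 units in Egfr fl/fl, with Cdh5 detected on 0 arrays. Markers of stellate cells and fibroblasts summed to 16.7 to 43.6 units in Met fl/fl and 430.9 to 650.5 units in Egfr fl/fl. In Egfr fl/fl the brightest of 4 tested Acta2 probes gave 366 to 601 units of this. Its log2 difference was -4.446, and the other Acta2 probes gave smaller negative differences. Dcn, the other tested marker of this list, gave 21.05 to 27.98 units in Egfr fl/fl and was also lower in Met fl/fl. That Acta2 probe and Dcn were detected in Egfr fl/fl only, so each passed the filter only through that group. Col1a1 and Lrat were detected on 0 arrays. Markers of macrophages and leukocytes summed to 1201 to 1594 units in Met fl/fl, against 318.8 to 615.2 units in Egfr fl/fl, and Ptprc and Adgre1 were detected on 0 arrays. Cd14 alone gave 1178 to 1565 units in Met fl/fl, against 274 to 533.6 units in Egfr fl/fl. The other tested marker, Csf1r, was detected in Egfr fl/fl only, so it too passed the filter only through the group where it was high. The part of these shifts in the results below was not tested.

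Promoter windows of the kinases Sphk1 and Sphk2 are shown first as reference sequence, since the array gives no sequence of its own. Whether these windows bear on the differences below was not tested. Each window runs from 250 bases before to 50 bases after an annotated start in RefSeq, assembly GRCm38.p6, and 8 of the 9 genes had a window, 13 windows in all. Sphk1 has 5 annotated starts and Sphk2 has 2. Of the Sphk1 windows 2 lie mostly within a printed neighbour and are left out. Capitals mark 4 motifs searched on both strands: the GC box GGGCGG, the CCAAT box CCAAT, the AP-1 site TGANTCA and the E-box CACGTG. The array probes were not placed against these starts.
Sphk1 start 1, chr11:116530850-116531149, plus strand: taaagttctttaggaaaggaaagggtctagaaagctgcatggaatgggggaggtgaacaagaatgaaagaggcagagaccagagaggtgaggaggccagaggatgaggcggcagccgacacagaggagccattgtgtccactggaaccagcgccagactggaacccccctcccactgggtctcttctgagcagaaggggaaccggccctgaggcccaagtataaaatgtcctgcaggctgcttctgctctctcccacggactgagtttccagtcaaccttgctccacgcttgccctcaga
Sphk1 start 2, chr11:116531587-116531886, plus strand: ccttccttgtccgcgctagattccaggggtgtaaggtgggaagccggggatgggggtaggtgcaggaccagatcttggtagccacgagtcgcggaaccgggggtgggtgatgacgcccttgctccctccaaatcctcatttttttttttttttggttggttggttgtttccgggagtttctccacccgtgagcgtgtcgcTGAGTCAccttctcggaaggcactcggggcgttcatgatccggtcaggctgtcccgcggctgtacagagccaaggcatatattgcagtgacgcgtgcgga
Sphk1 start 4, chr11:116532194-116532493, plus strand: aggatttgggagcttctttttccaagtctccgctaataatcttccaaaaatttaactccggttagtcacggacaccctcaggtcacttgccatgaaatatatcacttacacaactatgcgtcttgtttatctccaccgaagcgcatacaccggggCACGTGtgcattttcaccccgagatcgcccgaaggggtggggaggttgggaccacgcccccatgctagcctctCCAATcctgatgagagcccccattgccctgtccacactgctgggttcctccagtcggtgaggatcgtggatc
Sphk2 start 2, chr7:45717953-45718252, minus strand: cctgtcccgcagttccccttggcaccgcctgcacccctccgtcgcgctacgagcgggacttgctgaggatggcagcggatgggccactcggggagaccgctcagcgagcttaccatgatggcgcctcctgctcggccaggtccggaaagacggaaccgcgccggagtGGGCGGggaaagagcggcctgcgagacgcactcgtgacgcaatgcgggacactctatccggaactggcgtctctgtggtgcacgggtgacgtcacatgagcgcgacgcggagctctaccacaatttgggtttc
Sphk2 start 1, chr7:45715158-45715457, minus strand: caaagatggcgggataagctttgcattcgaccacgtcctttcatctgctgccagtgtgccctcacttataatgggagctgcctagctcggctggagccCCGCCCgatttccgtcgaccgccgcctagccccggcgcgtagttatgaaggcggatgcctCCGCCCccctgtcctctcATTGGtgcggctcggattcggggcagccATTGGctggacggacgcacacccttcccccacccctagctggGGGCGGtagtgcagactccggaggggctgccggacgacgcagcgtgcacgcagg

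None of the 4 motifs was found in the window of Sphk1 start 1, and no GC box in any of the 5 Sphk1 windows. An AP-1 match stood at chr11:116531787-116531793, before Sphk1 start 2, and an E-box and a CCAAT match stood before start 4. In Sphk2 the window of start 1 had 3 GC boxes and 2 CCAAT matches, and that of start 2 had 1 GC box. No match overlapped another. Among all 32851 windows of this length, 35.7% held a GC box, 37.4% a CCAAT box, 7.81% an AP-1 match and 7.15% an E-box. Of the 13 windows of the 8 genes, 7 held a GC box, 8 a CCAAT box, 2 an AP-1 match and 2 an E-box, with overlapping Sphk1 windows sharing matches. These are letter matches and say nothing of binding.

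Among the 9 genes, Sphk1, Sphk2 and Asah1 read higher in Met fl/fl by their brightest probe, Sgpp1 and Ugcg read lower, and Sgpl1, Smpd1, Sptlc1 and Sptlc2 did not pass the threshold. Differences are on the normalized log2 scale, Met fl/fl minus Egfr fl/fl, from limma fitted over all tested probes, and the threshold is a Benjamini-Hochberg adjusted p of 0.05 over them. Gene calls take the brightest probe and adjust over all 8549 tested genes instead. By these calls 3 of 9 genes lay past 0.05 as higher and 2 as lower. Over all 8549 genes tested 41.9% passed, 23.1% higher and 18.7% lower, and nothing is read from the count of the 9. Of the 17 probes, 13 were detected on all 6 arrays and tested, and 4 were detected on none. Past the threshold lay 3 of the 13 as higher and 3 as lower, where 39.8% of all 11578 tested probes passed, 21.6% higher and 18.2% lower. The arrays of the groups did not overlap for 8 of the 13, 4 higher and 4 lower, where 50.1% of all tested probes did not overlap, 27.5% higher and 22.6% lower. By gene 4 of 9 lay without overlap as higher and 3 as lower, beside 52% of all genes, 28.8% higher and 23.3% lower. In bulk RNA, fewer cells with a transcript and less of it per cell cannot be told apart.

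**Figure D1:**
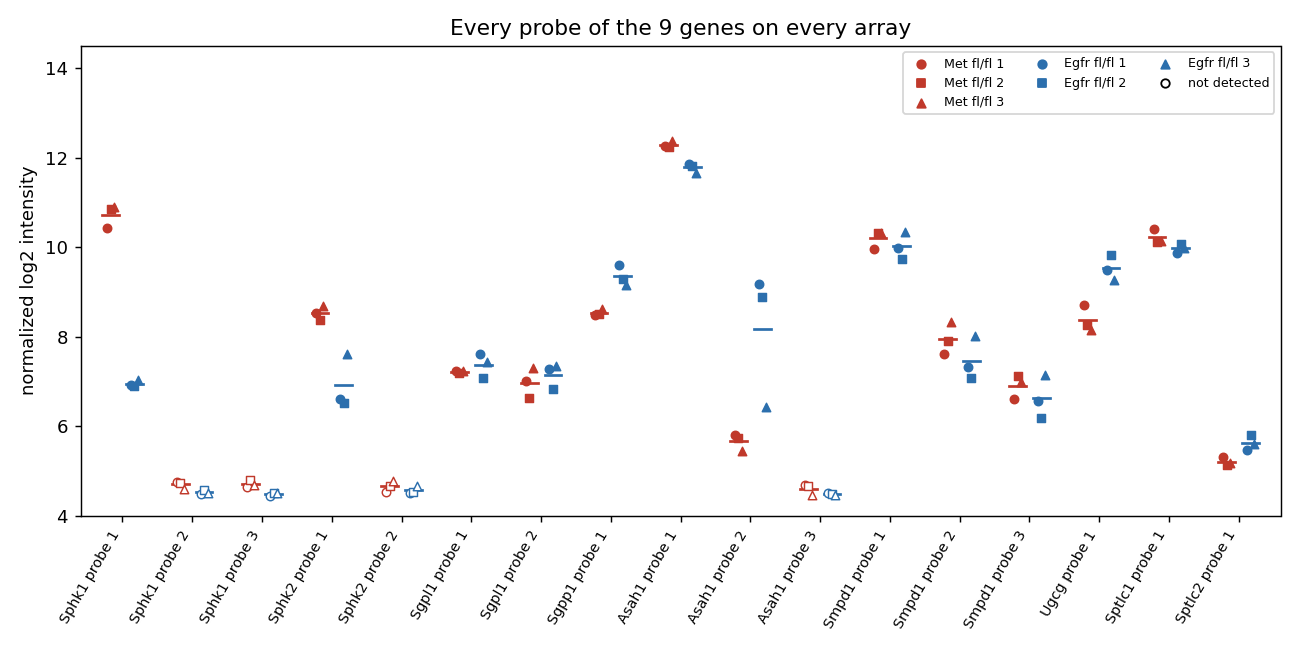
Normalized log2 intensity of all 17 probes on each of the 6 arrays, with Met fl/fl in red left of Egfr fl/fl in blue. Symbols give the replicate, short lines the group means, and open symbols a detection p of 0.05 or more. Probes of a gene are numbered by mean signal. Sphk1 probe 1 has the widest gap between groups, and the second Asah1 probe has Egfr fl/fl replicate 3 far below the other Egfr fl/fl arrays.

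Sphk1, the kinase that makes sphingosine 1-phosphate mainly in the cytosol and at the plasma membrane, had the widest gap. Its probe ILMN_1232884 read 1861, 1824 and 1781 signal units on Met fl/fl replicates 1, 2 and 3. On the Egfr fl/fl arrays it read 82.5, 84.5 and 139 units. All Met fl/fl arrays lay far above all Egfr fl/fl arrays, and every one of the 6 detected the probe. On the log2 scale Sphk1 averaged 10.72 ± 0.26 in Met fl/fl, against 6.94 ± 0.08 in Egfr fl/fl (SD, n = 3 each), a difference of 3.78 ± 0.16 (SE), or 13.7-fold. Ranked by this difference Sphk1 came 9th of 8549 genes, and 1st of the 7069 genes whose brightest probe was detected on all 6 arrays.

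The Sphk1 result rests on this probe alone. Of the other Sphk1 probes, ILMN_2650336 read 6.88, 4.94 and -0.0965 units in Met fl/fl and -4.81, -0.810 and -4.97 units in Egfr fl/fl. The remaining probe, ILMN_2732199, read 1.87, 7.19 and 3.29 units in Met fl/fl and -8.28, -3.43 and -5.39 units in Egfr fl/fl. Neither was detected on any array, with detection p from 0.115 to 0.924, so they give no level. The transcripts that each probe matches were not looked up here.

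Sphk2, the second sphingosine kinase, found largely in the nucleus and at internal membranes, moved the same way with a smaller gap. Its probe ILMN_2718791 read 494, 310.2 and 365 units in Met fl/fl, against 65.2, 63.1 and 215 units in Egfr fl/fl. The groups did not overlap, but Egfr fl/fl replicate 3 lay 1.06 above the mean of replicates 1 and 2 on the log2 scale, and its difference from the Met fl/fl mean was -0.91. The log2 difference was 1.61 ± 0.28 (SE), or 3.05-fold, from 8.53 ± 0.16 in Met fl/fl, against 6.92 ± 0.61 in Egfr fl/fl (SD, n = 3 each). With Egfr fl/fl replicate 3 left out it was 1.97, and that array alone against Met fl/fl gave 0.90. The other Sphk2 probe, ILMN_2639777, read -3.03 to 5.65 units in Met fl/fl and -4.48 to 3.76 units in Egfr fl/fl, and no array detected it.

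The enzymes that remove sphingosine 1-phosphate did not share the direction of the kinases. Sgpp1, a phosphatase that returns sphingosine 1-phosphate to sphingosine, read lower in Met fl/fl. Its only probe read 475, 348 and 346 units in Met fl/fl and 601, 499 and 634 units in Egfr fl/fl, with no overlap. The log2 difference was -0.81 ± 0.16 (SE), so that Egfr fl/fl was 1.75-fold higher. Sgpl1, the lyase, was measured by 2 probes. The brighter read 188, 131 and 124 units in Met fl/fl and 139.9, 96.9 and 188 units in Egfr fl/fl, and the other read 158, 81.8 and 131 units in Met fl/fl, against 108, 81.1 and 176 units in Egfr fl/fl. The groups overlapped on both probes, and their log2 differences were -0.16 ± 0.19 and -0.18 ± 0.23 (SE).

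Asah1, the acid ceramidase of the lysosome, gave opposite differences on its probes. The brightest, ILMN_1231966, read 6738, 4763 and 5070 units in Met fl/fl and 3083, 3056 and 3567 units in Egfr fl/fl. This was a log2 difference of 0.51 ± 0.11 (SE), or 1.42-fold, with no overlap between groups, and it did not pass with median scaling (0.52 ± 0.25). ILMN_2629591 read 53.4, 36.2 and 23.5 units in Met fl/fl, against 446, 371 and 86.4 units in Egfr fl/fl. Here Egfr fl/fl replicate 3 lay far below the others of its group, at -2.59 from the mean of replicates 1 and 2 on the log2 scale and 0.77 above the Met fl/fl mean. Its log2 difference was -2.50 ± 0.58 (SE), -3.36 when Egfr fl/fl replicate 3 was left out and -0.81 when it stood alone. The remaining probe was detected on no array. With the tested probes averaged, Asah1 read lower in Met fl/fl (-0.995 ± 0.323), so the direction given for the gene depends on the probe.

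Smpd1, the acid sphingomyelinase, which makes ceramide from sphingomyelin in lysosomes, had 3 tested probes, and Egfr fl/fl replicate 3 lay among or near the Met fl/fl arrays on each. The brightest read 1353, 1266 and 1183 units in Met fl/fl and 797.6, 682 and 1441 units in Egfr fl/fl. The next read 255, 221 and 277 units in Met fl/fl and 111, 97.5 and 287 units in Egfr fl/fl. The dimmest read 112, 122.7 and 100.4 units in Met fl/fl and 62.7, 48.3 and 150.1 units in Egfr fl/fl. The groups overlapped on all 3, and none passed the threshold, with log2 differences of 0.18 ± 0.17, 0.48 ± 0.27 and 0.28 ± 0.26 (SE). Without Egfr fl/fl replicate 3 they were 0.34, 0.75 and 0.54, and the second probe passed. Against that replicate alone they were -0.14, -0.06 and -0.25.

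Ugcg, which adds glucose to ceramide and so starts most glycosphingolipids, read lower in Met fl/fl. Its probe gave 563, 290.2 and 245 units in Met fl/fl and 557, 720.4 and 682 units in Egfr fl/fl. The signals of Met fl/fl replicate 1 and Egfr fl/fl replicate 1 nearly coincided before normalization, and Met fl/fl replicate 1 was the brightest array as a whole. After normalization the groups did not overlap, with 8.37 ± 0.30 in Met fl/fl, against 9.52 ± 0.28 in Egfr fl/fl (SD, n = 3 each). The log2 difference was -1.15 ± 0.20 (SE), or 2.22-fold higher in Egfr fl/fl.

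Sptlc1 and Sptlc2 encode subunits of serine palmitoyltransferase, the enzyme that begins sphingolipid synthesis, and neither passed the threshold. The Sptlc1 probe read 1839, 1102 and 1056 units in Met fl/fl and 737, 872 and 1144 units in Egfr fl/fl. The groups overlapped before normalization and not after it, with a log2 difference of 0.24 ± 0.13 (SE). The Sptlc2 probe was dim, reading 29.1, 16.3 and 15.8 units in Met fl/fl and 24.5, 34.8 and 39.9 units in Egfr fl/fl. It was detected on all arrays, with a detection p up to 0.0213, and differed by -0.42 ± 0.17 (SE). In the authors' normalized values Sptlc2 passed as lower in Met fl/fl (-0.74 ± 0.18).

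**Figure D2:**
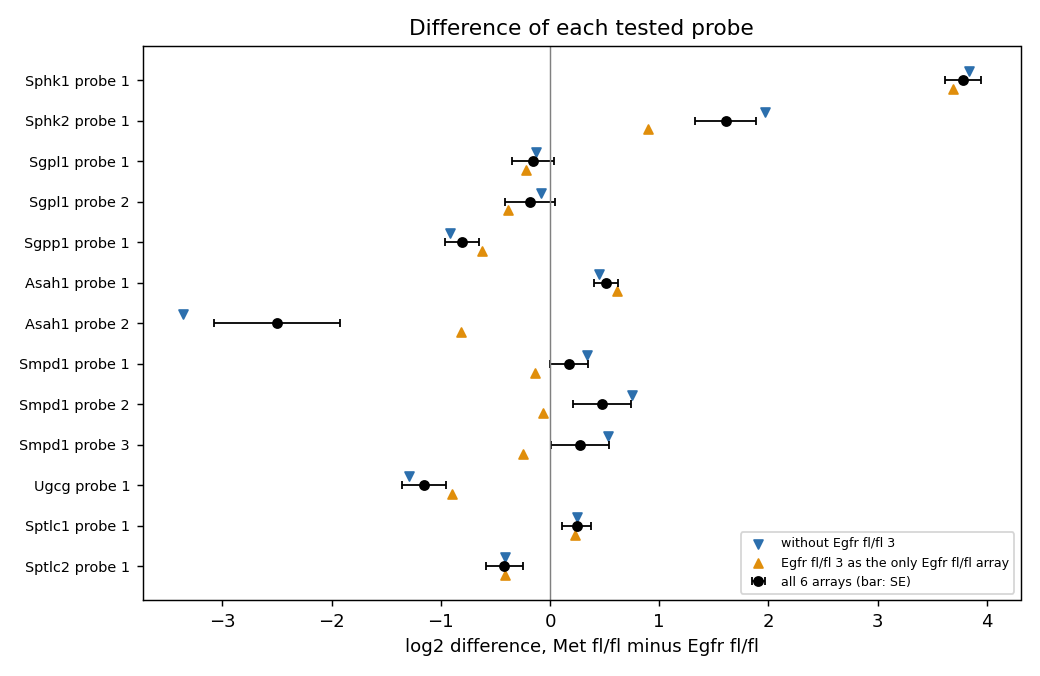
Log2 difference, Met fl/fl minus Egfr fl/fl, of each of the 13 tested probes, with the SE as a bar. Blue triangles leave out Egfr fl/fl replicate 3, and orange triangles set Met fl/fl against that array alone. Sphk1 stays between 3.69 and 3.83, whereas Asah1 probe 2 runs from -3.36 to -0.81 and the 3 Smpd1 probes change sign.

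The genes whose values ran most like those of Sphk1 over the 6 arrays, among 7068 other genes detected on all of them, included Cdca2, Dpp7, Nudt22 and Fam210b. Pearson r was 0.998 to 0.999 for these 4 genes, and 103 genes exceeded 0.99. The 6 points share the split between genotypes, which carries most of each r, and the log2 differences of the 4 genes ran from 0.68 in Dpp7 to 2.02 in Nudt22.

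Around the 9 genes, 64 further genes of sphingolipid metabolism were listed by role, of which 57 had a probe and 37 could be tested. By limma with Benjamini-Hochberg adjustment over all genes, 11 of the 37 rose in Met fl/fl, 14 fell and 12 did not pass, where over all 8549 tested genes 23.1% were higher and 18.7% lower. The counts per role below are small and are to be read against those shares. Genes of glycosphingolipid breakdown and lipid carriers made up most of the genes that rose. The genes that fell lay mostly on the lists of ceramide synthesis, of sphingomyelin turnover and of the removal of sphingosine 1-phosphate. The median log2 difference over the 37 was 0.075, beside 0.068 over all 8549 tested genes. With median scaling 6 rose and 9 fell, and without Egfr fl/fl replicate 1 the number that fell was 9. Without Egfr fl/fl replicate 3, 11 rose and 12 fell. Of the 37, 3 were detected in only 1 group and so passed the filter through the group where they were high, and among the other 34, 10 rose and 12 fell.

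In the synthesis of sphingoid bases and ceramide, 0 of 7 tested genes rose and 3 fell, with a median of -0.36. Passing 3 of 7 is near the 41.9% of all genes that passed. The genes that fell were Degs1, Cers2 and Ormdl3, and Ormdl3 encodes a regulator that restrains serine palmitoyltransferase, not an enzyme of synthesis. Degs1, the desaturase that turns dihydroceramide into ceramide, was lower in Met fl/fl with tight replicates. It read 832, 771 and 680 units in Met fl/fl and 5930, 6144 and 6934 units in Egfr fl/fl, with a wide gap. Its log2 difference was -3.29 ± 0.12 (SE, adjusted p = 4.37e-08), or 9.79-fold higher in Egfr fl/fl. Cers2, the ceramide synthase for very long acyl chains, fell by 0.81 ± 0.10 on the log2 scale (adjusted p = 0.000199), and its other probes gave -0.84 and -0.56.

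Of 7 tested genes of sphingomyelin turnover 1 rose and 3 fell, with a median of -0.23, beside 41.9% of all genes past the threshold. Sgms2, a sphingomyelin synthase of the plasma membrane, read 59.3, 49.3 and 34.2 units in Met fl/fl and 104.6, 100.5 and 163 units in Egfr fl/fl. It was 2.43-fold higher in Egfr fl/fl (limma adjusted p = 0.000394). Smpdl3b, a membrane-bound relative of the acid sphingomyelinase, was detected on 0 of 3 Met fl/fl arrays and on all Egfr fl/fl arrays. Its signal was higher in Egfr fl/fl by at least 2.27-fold, a bound that sets the Egfr fl/fl mean against the lowest detected signal on each Met fl/fl array, or the probe's own where that was higher. Smpdl3b passed the filter only through the group where it was high, so no p-value is given, and without it 2 of 6 tested genes fell. Smpd3, a neutral sphingomyelinase, rose by 0.55 ± 0.16 (limma adjusted p = 0.02). It read 1795, 1365 and 1509 units in Met fl/fl, against 689, 691 and 1367 units in Egfr fl/fl. Egfr fl/fl replicate 3 lay with the Met fl/fl arrays in signal, and the Smpd3 difference against that array alone was 0.23. The Smpd3 call was lost when Egfr fl/fl replicate 1 (limma adjusted p = 0.0882) or 2 (0.0770), or Met fl/fl replicate 2 (0.0540) or 3 (0.0873), was left out, and with median scaling (0.103).

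Of the ceramidases outside the lysosome, Asah2, the neutral ceramidase, fell. It read 116, 59.6 and 71.2 units in Met fl/fl and 200.1, 222 and 301.1 units in Egfr fl/fl, a log2 difference of -1.61 ± 0.18 (SE, limma adjusted p = 8.23e-05). Acer3, an alkaline ceramidase, differed by 0.48 ± 0.18 and did not pass (limma adjusted p = 0.0519).

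**Figure D3:**
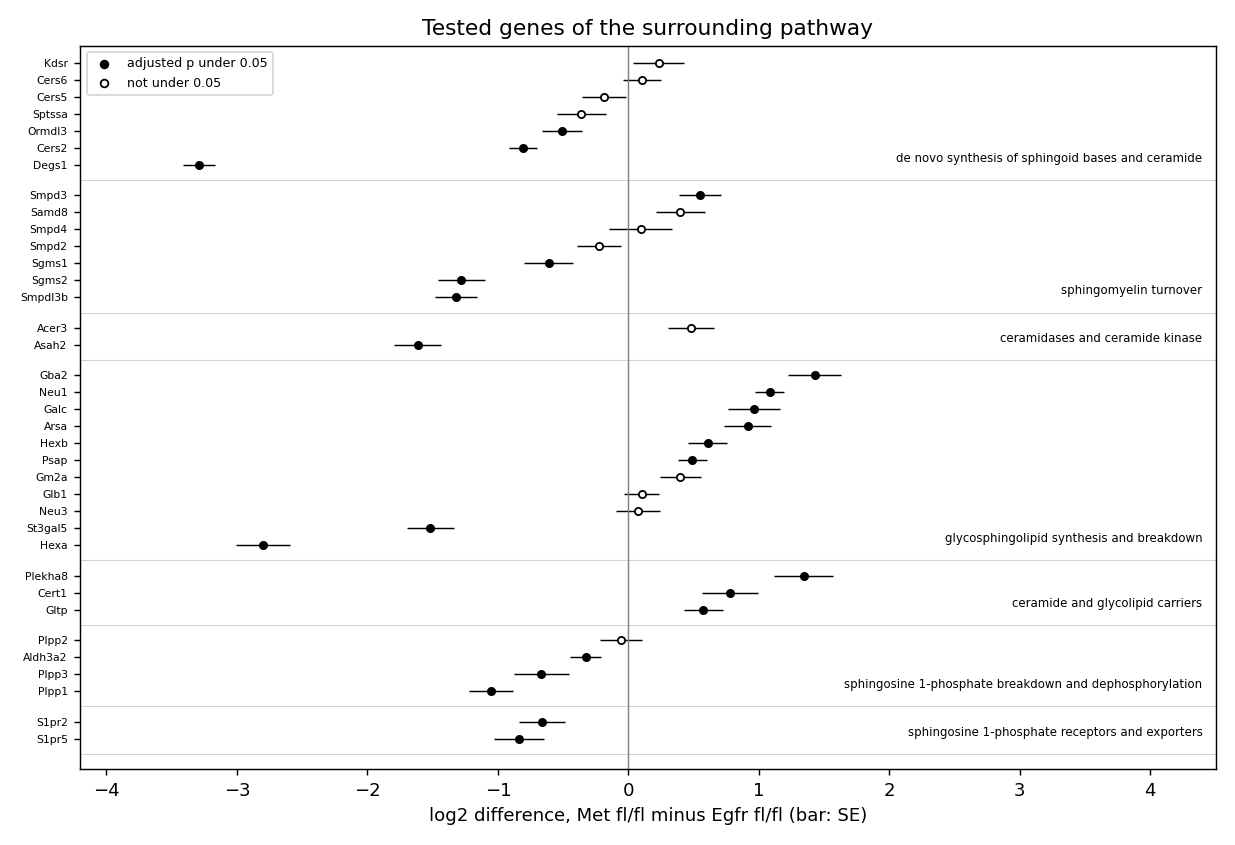
Log2 difference, Met fl/fl minus Egfr fl/fl, of 36 of the 37 tested genes of the surrounding pathway, grouped by role, with the SE as a bar. Filled points passed the adjusted p of 0.05. Points of glycosphingolipid breakdown and of carriers lie mostly right of 0, with Hexa and St3gal5 far left, and Degs1 is the lowest point drawn, at -3.29 with the offset of 16.

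Glycosphingolipid genes had 7 of 12 tested members up, 2 down and a median log2 difference of 0.55, beside 23.1% of all genes up and 18.7% down. Without a gene detected in Met fl/fl only, 6 of 11 were up. Gba2, a glucosylceramidase outside lysosomes, read 90.8, 68.5 and 97.5 units in Met fl/fl, against 16.6, 15.4 and 25.0 units in Egfr fl/fl. The groups did not overlap, and Gba2 was 2.69-fold higher in Met fl/fl (limma adjusted p = 0.000399). Its Egfr fl/fl signals were dim, and the size of the gap depended on processing. The log2 difference, 1.43 as reported, was 0.82 with normexp on the intensities and an offset of 50, and 2.10 with the authors' normalized values. Against this direction Hexa, the alpha subunit of beta-hexosaminidase, read 49.9, 19.6 and 14.4 units in Met fl/fl and 222, 221 and 320.2 units in Egfr fl/fl. Its log2 difference was -2.80 ± 0.21 (SE, limma adjusted p = 5.26e-06), and -3.48 with the authors' normalized values, where Degs1 gave -3.35. With normexp on the intensities and an offset of 50 the Hexa difference was -1.93. The Met fl/fl signals of Hexa were dim, with a detection p up to 0.0263, so the size of this gap also depended on processing. St3gal5, which makes the ganglioside GM3 from lactosylceramide, fell by 1.52 ± 0.18 on the log2 scale (limma adjusted p = 0.000125), and its other probe gave -2.05.

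All 3 tested carriers of ceramide and glycolipids rose, with a median of 0.78, beside 23.1% of all genes. Plekha8, which carries glucosylceramide, rose by 1.34 ± 0.23 on the log2 scale (limma adjusted p = 0.00106), from signals of 157, 109.4 and 148 units in Met fl/fl and 40.3, 37.9 and 33.6 units in Egfr fl/fl. Cert1, which carries ceramide to the site of sphingomyelin synthesis, rose 1.72-fold by its brightest probe (limma adjusted p = 0.0149), with 0.87 and -0.27 on the others. The Cert1 call did not hold with median scaling (limma adjusted p = 0.102).

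Among the other enzymes that remove sphingosine 1-phosphate or its products, 3 of 4 tested fell and 0 rose, with a median of -0.50. Over all genes 18.7% fell. Of the 3, Aldh3a2 passed narrowly, at -0.33 ± 0.12 (SE, limma adjusted p = 0.0483 over genes), and did not pass over probes. Plpp1, a lipid phosphate phosphatase of the cell surface, was 2.08-fold higher in Egfr fl/fl (limma adjusted p = 0.000797), and its other probes gave -1.23 and -0.51. Its relative Plpp3 fell by 0.67 ± 0.21 on the log2 scale (limma adjusted p = 0.0273). The Plpp3 signals were 393, 407 and 389.5 units in Met fl/fl and 421, 403 and 878 units in Egfr fl/fl, which overlapped before normalization. The other Plpp3 probe gave -0.47 ± 0.25 (SE) and did not pass (limma adjusted p = 0.167 over probes). The Plpp3 call was lost with the authors' normalized values (limma adjusted p = 0.0617), with median scaling (0.0976), and without Met fl/fl replicate 1 (0.0934), Met fl/fl replicate 2 (0.0506) or Egfr fl/fl replicate 1 (0.0506). Sgpp2, the second specific phosphatase, was detected on no array.

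Of the sphingosine 1-phosphate receptors, S1pr2 fell and S1pr5 was detected in Egfr fl/fl only, while S1pr1, S1pr3 and S1pr4 were detected on no array. S1pr2 read 120.5, 76.8 and 79.9 units in Met fl/fl and 108, 125 and 164 units in Egfr fl/fl. After normalization the groups did not overlap, and S1pr2 was 1.58-fold higher in Egfr fl/fl (limma adjusted p = 0.0124). That call was lost with median scaling (limma adjusted p = 0.116) and without Met fl/fl replicate 2 (0.0623). S1pr5 read -2.56, 7.47 and 6.68 units in Met fl/fl and 33.4, 18.7 and 42.6 units in Egfr fl/fl. It was detected on 0 Met fl/fl arrays, and its signal was higher in Egfr fl/fl by at least 1.53-fold. It too passed the filter only through Egfr fl/fl, so no p-value is given. Mfsd2b, an exporter of sphingosine 1-phosphate in blood cells, was detected on no array.

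**Figure D4:**
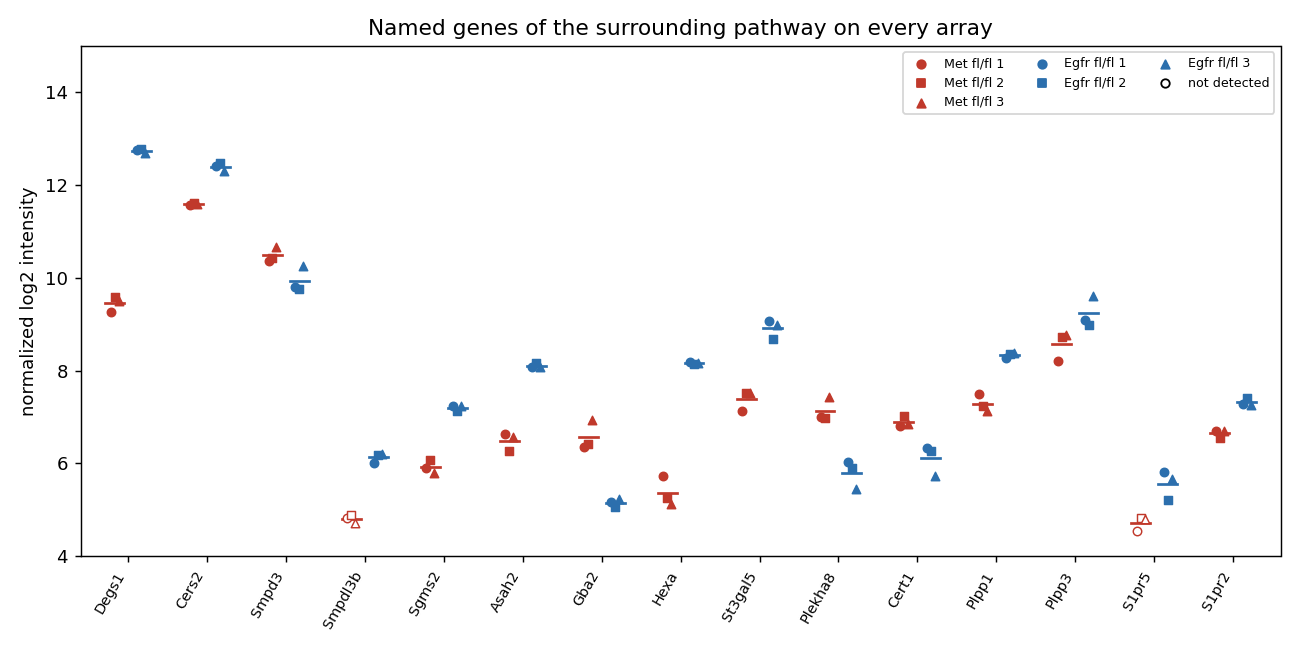
Normalized log2 intensity on each array of 15 genes of the surrounding pathway, with Met fl/fl in red left of Egfr fl/fl in blue, symbols giving the replicate and short lines the group means. Open symbols were not detected. Degs1 and Hexa have the widest gaps, and Smpdl3b and S1pr5 are open on all Met fl/fl arrays.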

How the data were processed

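The labels' protocols name Qiagen and Ambion kits for RNA and biotinylated cRNA, and the submitters' processing notes name GenomeStudio 2011.1. The authors deposited a non-normalized intensity per probe, with 26.9% to 31.1% of values below 0, which shows that background had been subtracted. Beside it stands a detection p-value, per the file headers. A second deposited table holds the authors' normalized intensity values, whose quartiles nearly coincide between arrays. Its method and the array's annotation version are not stated in the labels.

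From the non-normalized table, limma 3.58.1 in R 4.3.3 corrected background by normexp, with negative controls inferred by detection p-value. An offset of 16, which understates changes of dim probes, and quantile normalization on the log2 scale followed. Tested were the 11578 of 25697 probes whose detection p fell under 0.05 on 3 or more arrays, by lmFit and eBayes with a variance trend and Benjamini-Hochberg adjustment. A gene takes its brightest tested probe. The fit was also run on simulated data in which 200 probes were changed and noise was independent between probes. Far more probes passed in the real arrays, so no error rate is taken from the simulation. Symbols were matched to RefSeq (GRCm38.p6), 14307 of 18138 as they stood and 2906 after an update.

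The 9 genes, the 64 further genes and the markers were chosen with earlier results of these data known. Named were all probes of the 9, up to 2 genes per role and direction past the threshold, the receptors, and the 5 genes most like Sphk1. Single-gene results that this rule would name but that are absent from the text are not reported here. Acer3, Sgpp2, Mfsd2b, Ormdl3, Aldh3a2 and the markers were named after their values were seen. Alternatives covered background, offset, scaling, the authors' values, filters, replicate block, probe averaging and each array left out. Setting Met fl/fl against Egfr fl/fl replicate 3 alone was added after seeing the data.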

Additional observations from a re-analysis of the deposited data

How the results depend on the processing

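The log2 difference of Sphk1, 3.78 as reported, was 3.34 with normexp on the intensities and an offset of 50, 3.45 with an offset of 50 and 3.98 with the authors' normalized values, and 3.69 to 3.93 with 1 array left out. The count of all genes past the threshold, 3578 as reported, was 2354 with median scaling (48.0% of them higher in Met fl/fl, against 55.2%) and 2277 against Egfr fl/fl replicate 3 alone, an alternative chosen after seeing the data where the spread comes from Met fl/fl only and the lone array is taken to share it. There 2835 probes passed in place of 4613. With 1 array left out it was 2458 to 4210 genes and 3149 to 5547 probes. Of the 37 further pathway genes, 11 higher and 14 lower as reported, 6 were higher and 9 lower with median scaling, 9 were lower against Egfr fl/fl replicate 3 alone, and 8 to 11 were higher and 9 to 12 lower with 1 array left out. Their median, 0.075 as reported, was 0.026 with the authors' values, -0.027 with median scaling, -0.017 over 57 genes with no filter and -0.056 over 29 genes with a detection p under 0.01 on all 6 arrays, and -0.043 to 0.091 over 35 or 36 genes with 1 array left out. The cause of these shifts was not tested. Among the 9 genes the counts of 3 higher and 2 lower became 2 and 3 with probes averaged, 3 and 3 with the authors' values, 2 and 2 with median scaling, and were 3 and 2 in the other 13 alternatives. With replicate number as a block 3908 genes and 5101 probes passed, and 12 pathway genes were higher and 14 lower. In this balanced design the block leaves each difference as it is. Deviations of same-numbered arrays correlated at 0.24, -0.14 and 0.32, and 3 of 6 arrays correlated best with their own number, so the numbers are not taken as pairs. Smpdl3b, S1pr5, Hexa, Gba2 and Sptlc2 gave no value under the stricter filter, nor did Smpdl3b and S1pr5 when an Egfr fl/fl array was left out or only 1 was used. Dim probes such as Sptlc2 sit near the detection limit, which bounds what these arrays can show for them.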
